A study of Mus musculus with 6 samples.

Results

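The 36 genes described here encode enzymes of cholesterol, fatty acid and unsaturated fatty acid synthesis, the proteins that regulate these pathways and 3 proteins that move cholesterol. They were listed by gene symbol with earlier results of these data known, among them the large difference of Scd1 between wild-type and tagged cells, so membership was in part chosen by the wild-type comparison, and that comparison is given as a description, with no p-value and with counts past the edgeR threshold used as support for nothing. Of 39017 genes in the count tables, all 36 were found, 35 by symbol and Msmo1 by its gene ID ENSMUSG00000031604 under an older symbol.

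PolyA RNA-seq of mouse embryonic stem cells (mESCs) gave 6 libraries in 3 groups, 2 per group. The untreated and the auxin group were the Pol II degron line, V6.5 mESCs in which RPB1, the largest Pol II subunit encoded by Polr2a, carries a C-terminal mAID-GFP tag and in which OsTIR1, the adaptor that directs tagged protein to degradation, is expressed from the Rosa26 locus. Both groups received 1 μg/ml doxycycline for 12 h to induce OsTIR1, and the auxin group then received 500 μM auxin (indole-3-acetic acid) for 6 h. The wild-type group was V6.5 without the tag. The sources describe no OsTIR1 cassette for it and do not state whether it received doxycycline. All cells grew on irradiated mouse embryonic fibroblasts in medium with serum and LIF. Harvest followed 2 passages of the feeders, and the sources do not say how many feeder cells remained. The tagged line is a clone, and the study's methods call the replicates of its sequencing experiments biological without saying what separated them, so p-values measure only the spread between these libraries. The wild-type libraries came in a table of their own with a separate extraction text. Tag, OsTIR1 cassette, antibiotic selection, clone, any doxycycline difference and library preparation therefore cannot be told apart in that comparison.

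Cells make cholesterol from acetyl-CoA through mevalonate, isoprenoid units and squalene, and make fatty acids from the same precursor through malonyl-CoA. When membrane cholesterol is low, SCAP carries the SREBP transcription factors (encoded by Srebf1 and Srebf2) from the endoplasmic reticulum to the Golgi, where they are cut and released to activate the enzyme genes. The INSIG proteins hold SCAP back when sterols are plentiful, and oxysterols activate the LXR receptors, which raise the cholesterol exporters Abca1 and Abcg1. Embryonic stem cells divide fast and use these pathways to build membranes.

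SREBPs bind sterol regulatory elements together with neighbouring NF-Y and Sp1 sites, so the 300-base windows from 250 bases before to 50 bases after the RefSeq transcription start (build GRCm38.p6) were searched on both strands for 5 motifs. A window was found for 28 of the 36 genes, and none was used for Abcg1, Fads1, Fdft1, Fdps, Scd1, Scd2, Sqle and Stard4. The windows of 4 genes are shown because Hmgcs1, Insig1 and Idi1 had the largest wild-type differences among genes with a window, while Insig2, the paralogue of Insig1, differed the other way. Capitals mark CACNCCAC, the core of the sterol regulatory element, and CCAAT, the NF-Y box, on either strand, so ATTGG is an NF-Y box on the opposite strand.
Hmgcs1 (chr13:119690101-119690400, plus strand): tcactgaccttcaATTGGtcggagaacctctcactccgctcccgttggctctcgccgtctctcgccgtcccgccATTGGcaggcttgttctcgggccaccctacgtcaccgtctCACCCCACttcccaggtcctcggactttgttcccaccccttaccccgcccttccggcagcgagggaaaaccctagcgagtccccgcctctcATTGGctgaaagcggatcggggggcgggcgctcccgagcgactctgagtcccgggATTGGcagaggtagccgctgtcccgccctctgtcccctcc
Insig1 (chr5:28071162-28071461, plus strand): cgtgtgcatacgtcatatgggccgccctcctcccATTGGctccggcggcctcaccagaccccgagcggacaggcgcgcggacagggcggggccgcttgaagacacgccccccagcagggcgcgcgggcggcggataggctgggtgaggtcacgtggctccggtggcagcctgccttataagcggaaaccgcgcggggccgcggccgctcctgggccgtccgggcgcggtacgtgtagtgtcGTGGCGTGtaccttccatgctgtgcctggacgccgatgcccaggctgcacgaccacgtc
Idi1 (chr13:8885356-8885655, plus strand): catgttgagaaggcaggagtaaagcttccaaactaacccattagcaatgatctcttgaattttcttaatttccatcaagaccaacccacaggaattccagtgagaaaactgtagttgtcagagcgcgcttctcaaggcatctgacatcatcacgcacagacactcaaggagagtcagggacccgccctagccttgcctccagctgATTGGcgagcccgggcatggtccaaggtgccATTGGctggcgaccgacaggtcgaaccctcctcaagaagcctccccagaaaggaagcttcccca
Insig2 (chr1:121332540-121332839, minus strand, 1 of 3 windows of the gene): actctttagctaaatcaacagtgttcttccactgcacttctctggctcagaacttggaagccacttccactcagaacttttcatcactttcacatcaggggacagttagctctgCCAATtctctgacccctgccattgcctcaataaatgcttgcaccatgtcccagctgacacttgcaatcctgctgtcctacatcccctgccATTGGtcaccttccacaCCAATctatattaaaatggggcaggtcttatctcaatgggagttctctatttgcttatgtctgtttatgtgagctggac

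The Hmgcs1 window held the longer element TCACNCCAC, whose core began 136 bases before the start, and 4 NF-Y boxes at 237, 176 and 45 bases before the start and 10 bases after it. Insig1 held 1 core, on the minus strand, which began 9 bases before the start, and 1 NF-Y box. Idi1 held 2 NF-Y boxes, at 45 and 14 bases before the start, and no core, and the printed Insig2 window held 3 NF-Y boxes and no core. Among the genes with a window, TCACNCCAC occurred in 1 of 28 (3.57%) beside 1.44% of the 27025 genes with windows, and CACNCCAC, which it contains, in 3 (10.7%; Acat2, Hmgcs1 and Insig1) beside 7.12%. The NF-Y box CCAAT was present in 22 (78.6%) beside 41.1%, the E-box CACGTG in 6 (21.4%) beside 8.09%, and the Sp1 box GGGCGG in 24 (85.7%) beside 38.2%. Among the 11420 genes with a window and a mean of at least 10 counts the shares were 1.44%, 7.79%, 42.8%, 11.6% and 68%, in the same order of motifs. Of the 3 Insig2 windows, only the printed one held an NF-Y box, and the windows say nothing about binding in these cells.

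Total counts ran from 14094022 to 15358714 per library, and members had at least 134 counts in every library. Levels are given as CPM, counts divided by the library total and brought to a common scale, with TMM factors computed over the 6 libraries. Between the replicates of a group the members differed by a median of 0.095 (untreated), 0.099 (auxin) and 0.05 (wild type) on the log2 scale, and by at most 0.31 (Acat2, untreated). Polr2a mRNA, which does not report the loss of its protein, was at 462 and 451.7 CPM in the untreated, 652 and 688.2 in the auxin and 483.9 and 497.8 in the wild-type libraries. It rose with auxin by 0.57 on the log2 scale (SE 0.071, edgeR adjusted p = 0.00117).

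The 36 genes together summed to 1966 and 2050 CPM in the untreated libraries, 1919 and 1964 with auxin, and 6543 and 6456 in the wild type. The wild-type sum was 3.24 times the untreated one, and the auxin sum was 0.967 times it. The desaturases differed most as a group (5.43 times the untreated sum), followed by the mevalonate enzymes (4.18), while the regulators differed least (2.31). These sums describe the RNA of a bulk culture, in which fewer cells of a type and less RNA per cell cannot be told apart.

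**Figure D1:**
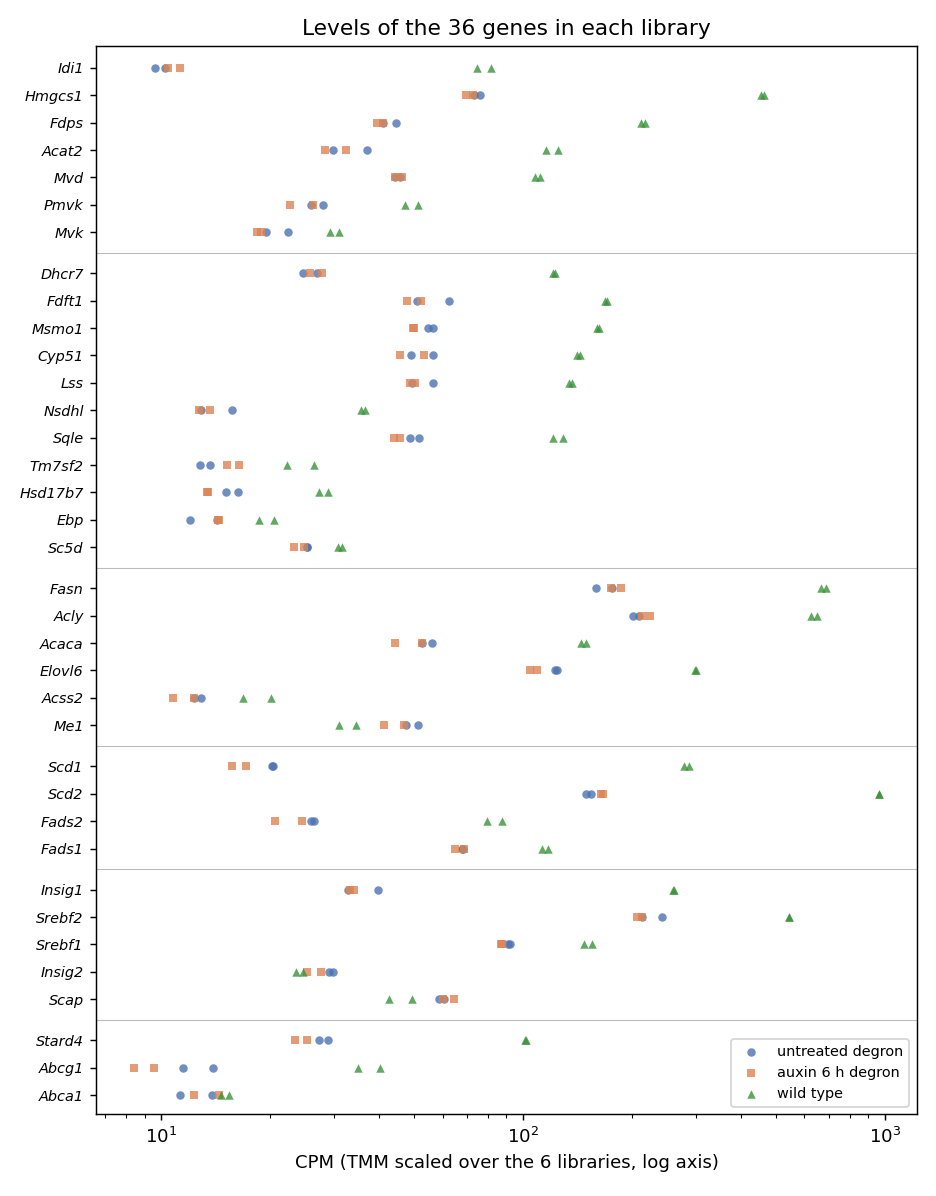
Level of each of the 36 genes in each of the 6 libraries, as TMM-scaled CPM on a log axis, in 6 blocks from top to bottom: mevalonate enzymes, squalene to cholesterol, acetyl-CoA supply and fatty acid chain, desaturases, regulators and transport. The untreated and auxin points lie together, while both wild-type points lie above both untreated points for 33 genes and below them for Me1, Scap and Insig2; on a mitochondrial scale, given in the text, most of these differences change sign.

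Wild-type cells had higher levels of most of the 36 listed genes than untreated tagged cells under TMM scaling. On a scale set by mitochondrial mRNAs, however, the members' median was negative, as was that of all genes. Of the 36 genes, 32 were called higher (adjusted p under 0.05 in edgeR) beside 29.9% of the 15778 genes tested, 3 were called lower beside 30.7%, and 23 were called higher with a log2 difference over 1 beside 7.12%. Both wild-type libraries lay above both untreated libraries for 33 members beside 40.5% of all genes, and below them for 3 members beside 40.5%. As the members were chosen with this comparison known, nothing is read from these counts, and the values below are descriptions. Smaller differences crossed the threshold in single alternatives: Scap (−0.27), Insig2 (−0.26) and Sc5d (0.29) were no longer past it without wild-type replicate 2, nor were Acss2 (0.42) and Insig2 (−0.32) without wild-type replicate 1, nor Sc5d (0.31) and Insig2 (−0.29) with DESeq2, while Abca1 (0.41) was past it only without untreated replicate 1 and on the mitochondrial scale described next. The median log2 difference was 1.34 over the members and −0.01 over all genes tested.

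The 13 mitochondrially encoded mRNAs made up 0.341% and 0.401% of counts in the untreated libraries and 1.53% and 1.5% in the wild-type libraries. Scaling to these mRNAs moved the median of all genes to −2.10 and that of the members to −0.74. On this scale 5 members were called higher and 26 lower, beside 73 and 15235 of the 15778 genes tested. The members' median stayed 1.36 above that of all genes (1.35 under TMM). This scale holds only if cells of both groups carried equal amounts of mitochondrial mRNAs, which was not measured. With no spike-in, neither scale fixes the absolute direction of most members in the wild type. The differences below are TMM-scaled, relative to the bulk of mRNAs. Of the 36, Scd1 (1.70), Idi1 (0.88), Insig1 (0.75), Scd2 (0.56), Hmgcs1 (0.51), Fdps (0.23) and Dhcr7 (0.14) kept a positive log2 difference on the mitochondrial scale.

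All 7 mevalonate pathway genes had higher TMM-scaled levels in both wild-type libraries than in both untreated ones (median log2 difference 1.84), before the shift of scale given above. Idi1 (ENSMUSG00000058258, chr13:8885501-8892451), the isomerase that makes dimethylallyl diphosphate, was at 9.63 and 10.2 CPM untreated, 11.3 and 10.5 with auxin, and 74.8 and 81.7 in the wild type. Its wild-type level was 7.83-fold higher (log2 2.97, SE 0.091), and neither tagged group overlapped with the wild type. Hmgcs1 (ENSMUSG00000093930, chr13:119690379-119708260), the synthase that makes HMG-CoA, was at 76.3 and 73 CPM untreated, 72.6 and 69.8 with auxin, and 462.5 and 456.2 in the wild type, a log2 difference of 2.61 (SE 0.062). Fdps (ENSMUSG00000059743, chr3:89093588-89101959), which makes farnesyl diphosphate, was at 41 and 44.5 CPM untreated, 39.5 and 41 with auxin, and 212.5 and 218 in the wild type, a log2 difference of 2.33 (SE 0.069). Acat2, the cytosolic thiolase that opens the pathway, differed by 1.84 (SE 0.095), Mvd by 1.28 (SE 0.068), Pmvk by 0.86 (SE 0.083) and Mvk, the mevalonate kinase, by 0.51 (SE 0.099). The first 2 and the last 2 enzymes of this block thus had larger values than the kinases and the decarboxylase (Mvd) between them. Of the 100-base stretches of their transcripts, 28.9% (Acat2, with Acat3), 21.4% (Fdps) and 15.8% (Idi1) also occur in transcripts of other genes, so their counts may be shared with those genes.

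The 11 genes from squalene to cholesterol likewise had both wild-type libraries above both untreated ones (median 1.33 under TMM scaling). Dhcr7, the reductase that makes cholesterol from its dehydro precursor, was at 24.7 and 27 CPM untreated and 122.3 and 121.4 in the wild type, a log2 difference of 2.23 (SE 0.076). Fdft1 (squalene synthase) differed by 1.57 (SE 0.086), Msmo1 by 1.53 (SE 0.065), Cyp51 (lanosterol demethylase) by 1.42 (SE 0.077), Lss (lanosterol synthase) by 1.35 (SE 0.076), Nsdhl by 1.33 (SE 0.106) and Sqle (squalene epoxidase) by 1.31 (SE 0.071). These 6 enzymes thus lay between 1.31 and 1.57. Smaller differences were found for Tm7sf2 (0.87, SE 0.119), Hsd17b7 (0.83, SE 0.10), Ebp (0.56, SE 0.126) and Sc5d (0.30, SE 0.083). Ebp, the sterol isomerase and 1 of the 3 members with the lowest mean CPM, was at 14.3 and 12 CPM untreated, 14.4 and 14.3 with auxin, and 18.6 and 20.5 in the wild type. Tm7sf2 shares exons on the same strand with Vps51.

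Of the 6 genes of acetyl-CoA supply and the fatty acid chain, 5 lay higher in both wild-type libraries and Me1 lower (median 1.35 under TMM scaling). Acly (ENSMUSG00000020917, chr11:100476353-100528000), which releases cytosolic acetyl-CoA from citrate, was at 209.4 and 202 CPM untreated, 212.9 and 224.8 with auxin, and 649.7 and 626.7 in the wild type. Fasn (ENSMUSG00000025153, chr11:120805846-120824547), fatty acid synthase, was at 158.8 and 176.3 CPM untreated, 175.6 and 186.5 with auxin, and 687.6 and 665.3 in the wild type. Both were more abundant in either wild-type library than in any tagged library, with log2 differences of 1.63 (SE 0.060) and 2.01 (SE 0.068). Acaca, the acetyl-CoA carboxylase that makes malonyl-CoA, differed by 1.43 (SE 0.069), and Elovl6, the elongase of palmitate, by 1.28 (SE 0.058). Acss2, which makes acetyl-CoA from acetate, was low, at 12.3 and 12.9 CPM untreated, 10.8 and 12.3 with auxin, and 20.1 and 16.8 in the wild type, a log2 difference of 0.54 (SE 0.129). Me1, the cytosolic malic enzyme that supplies NADPH, went the other way, from 51.4 and 47.4 CPM untreated to 34.5 and 31.1 in the wild type, which was 1.51-fold lower (log2 −0.60, SE 0.084). Acaca and Me1 share 23.7% and 12.3% of their 100-base stretches with other genes. Acss2, Elovl6 and Me1 overlap exons of other genes on the opposite strand. Among the other members, so do Cyp51, Fdft1, Hmgcs1, Idi1, Lss, Scap and Srebf1.

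The 4 desaturases lay higher in both wild-type libraries (median 2.16 under TMM scaling), and they held the largest difference among the members. Scd1 (ENSMUSG00000037071, chr19:44394455-44407879), which puts the first double bond into stearate and palmitate, was at 20.4 and 20.3 CPM untreated (292 and 295 counts), 17.2 and 15.8 with auxin (274 and 244 counts), and 279.1 and 288.3 in the wild type (3961 and 4129 counts). This difference of 13.9-fold (SE 0.071 on the log2 scale) ranked 32 among the 15778 genes tested. Its neighbour Scd2 (ENSMUSG00000025203, chr19:44293674-44306864), the form known from brain and early development, had the highest mean CPM of the members, at 154.5 and 149.4 CPM untreated, 164.4 and 166.4 with auxin, and 965.7 and 963.9 in the wild type (log2 2.66, SE 0.062). Only 2.58% of the 100-base stretches of Scd1 and 0.879% of those of Scd2 occur in other genes. Fads2 and Fads1, which desaturate polyunsaturated fatty acids, differed by 1.67 (SE 0.078) and 0.75 (SE 0.065).

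The 5 regulators were split, with 3 higher and 2 lower in both wild-type libraries (median 0.72 under TMM scaling). Srebf2 (ENSMUSG00000022463, chr15:82147181-82205379), which mainly serves cholesterol genes, was at 214 and 241.9 CPM untreated, 206.3 and 213 with auxin, and 544.2 and 543.3 in the wild type (log2 1.25, SE 0.068). Srebf1 (ENSMUSG00000020538, chr11:60199089-60222581), which mainly serves fatty acid genes, was at 91.2 and 92.3 CPM untreated, 87.2 and 87.8 with auxin, and 155.7 and 147.1 in the wild type (log2 0.72, SE 0.064). Both factors were above their tagged levels in either wild-type library, and the counts do not separate the SREBP-1a and SREBP-1c transcripts of Srebf1. Scap (ENSMUSG00000032485, chr9:110333288-110384950), their escort, was at 60.5 and 58.8 CPM untreated, 60.1 and 64.7 with auxin, and 49.5 and 42.6 in the wild type (log2 −0.38, SE 0.082).

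The INSIG pair split. Insig1 (ENSMUSG00000045294, chr5:28071363-28078662), itself a known SREBP target, was at 32.9 and 39.7 CPM untreated, 34.1 and 33.2 with auxin, and 261.6 and 259.5 in the wild type, 7.14-fold higher (log2 2.84, SE 0.084). Insig2 (ENSMUSG00000003721, chr1:121304353-121332589), which is not under the same sterol control, was at 29.2 and 29.9 CPM untreated, 27.7 and 25.4 with auxin, and 24.7 and 23.6 in the wild type (log2 −0.30, SE 0.087). Per kilobase of exon, Insig1 and Insig2 were at 11.7 and 8.51 CPM in untreated cells and at 84.3 and 6.96 CPM in the wild type. Neither gene shares a 100-base stretch with another gene.

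Of the 3 transport genes, Stard4, a carrier of cholesterol between membranes, was at 29 and 27.3 CPM untreated and 101.3 and 101.7 in the wild type (log2 1.84, SE 0.073). Abcg1, an exporter under LXR control, was at 11.5 and 14 CPM untreated, 8.41 and 9.55 with auxin, and 40.3 and 35 in the wild type (log2 1.56, SE 0.116). Abca1 (ENSMUSG00000015243, chr4:53030787-53159895), the exporter that loads apolipoprotein A-I, was at 13.8 and 11.3 CPM untreated, 14.5 and 12.3 with auxin, and 14.7 and 15.4 in the wild type. Its difference was 0.26 (SE 0.138), beside 1.56 for Abcg1, and the difference between the exporters was not tested. On the mitochondrial scale Abca1 was at −1.85 beside −2.10 for all genes.

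**Figure D2:**
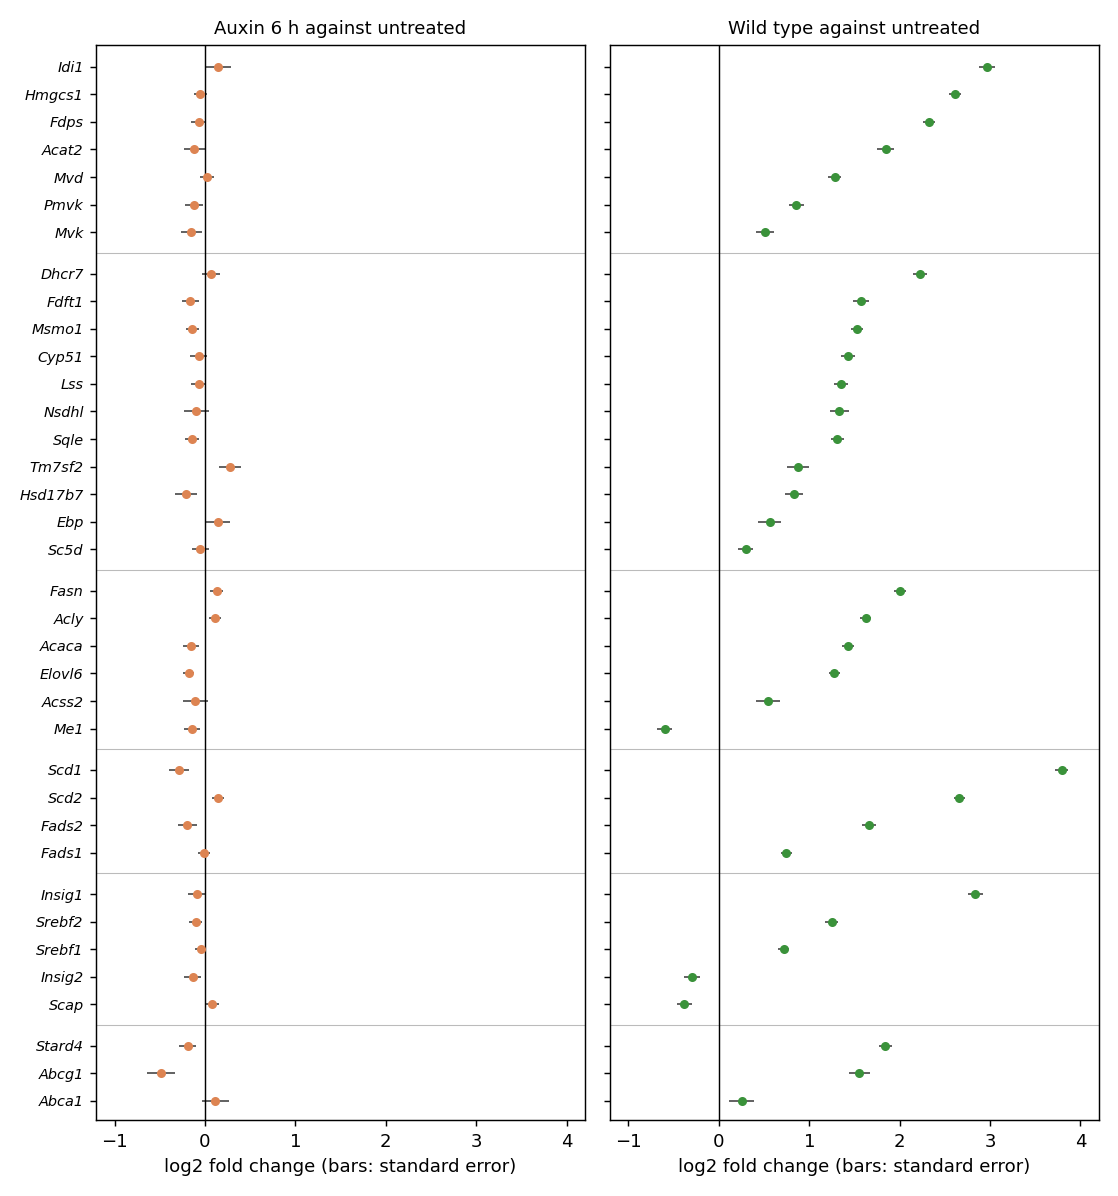
Log2 fold change of each member with its standard error, from edgeR with TMM scaling, for auxin against untreated (left) and wild type against untreated (right), in the 6 blocks used for the levels. The auxin values lie between −0.49 and 0.28, and the wild-type values between −0.60 and 3.80, with Me1, Scap and Insig2 below 0; scaled to mitochondrial mRNAs the members' wild-type median is −0.74 beside −2.10 for all genes.

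Divided by exon length, the order of the members also differed between the groups. In untreated cells the 3 highest levels per kilobase of exon were those of Acly (39 CPM per kilobase), Srebf2 (31.7) and Scd2 (27.8), whereas in the wild type they were Scd2 (176.6), Acly (120.9) and Hmgcs1 (100), with Insig1 (84.3) next. Scd1 moved from place 29 of 36 (4.16 CPM per kilobase) to place 8 (58), Idi1 from 33 to 20 and Insig1 from 15 to 4. Me1 moved down from 13 to 27, Scap from 20 to 31 and Insig2 from 19 to 29. Abca1 was last in both groups. With auxin the same 3 genes led as in untreated cells, in the order Acly, Scd2 and Srebf2, and neighbours such as Hmgcs1 (16.3) and Srebf1 (16.3) in untreated cells did not differ beyond the replicate spread.

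**Figure D3:**
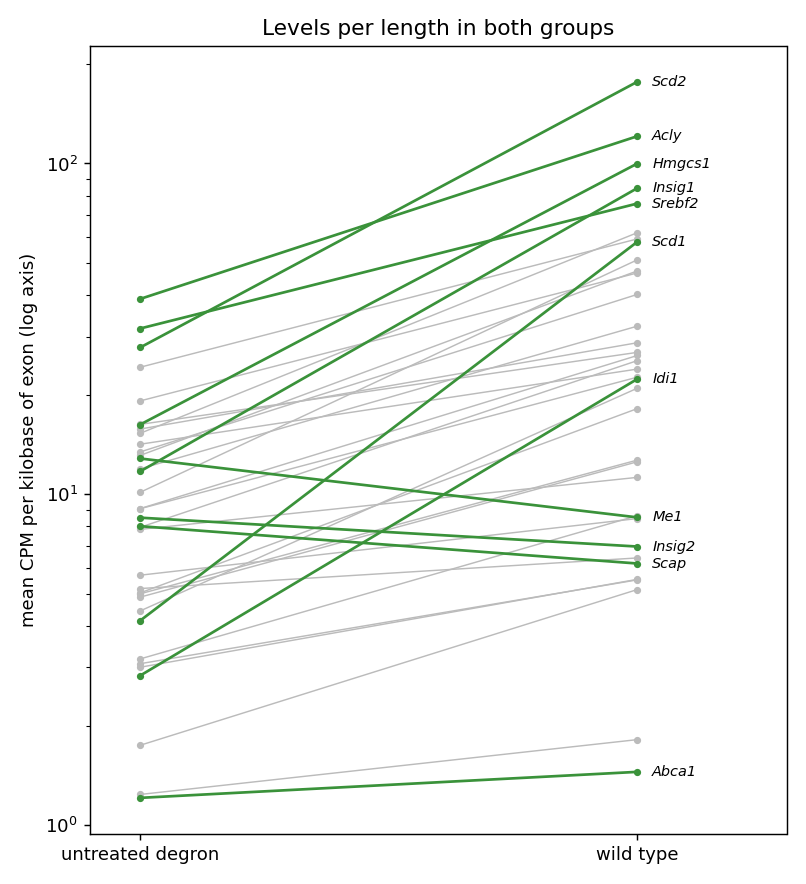
Mean level per kilobase of exon (CPM per kilobase, log axis) of each member in untreated tagged cells and in the wild type; each line is 1 gene, the named genes are green, and means are over 2 libraries. Scd1 goes from place 29 to place 8 and Insig1 from 15 to 4, and the lines of Me1, Insig2 and Scap point down; within a library the order does not depend on the scaling between groups.

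The auxin comparison, which shares the untreated libraries with the wild-type one, asks how mature mRNAs stand after 6 h of Pol II degradation. No member rose or fell by the adjusted test, beside 2.56% of the 16128 genes tested that rose and 1.64% that fell. At an unadjusted p under 0.05 there were 5 members by edgeR beside 20.1% of all genes. By DESeq2 there was 1, for which no share over all genes was computed. DESeq2 also called no member, beside 176 genes that rose and 114 that fell of 16128. The members' median log2 change was −0.09 beside 0 for all genes tested, with 10 positive and 26 negative values and 35 of 36 within 0.3. Both auxin libraries were above both untreated libraries for 5 members beside 22.3% of all genes and below them for 16 beside 28.4%. The 95% intervals of the single genes ran from −0.82 to 0.54 at their extremes, so the data do not show that the levels were the same.

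By role, the median log2 change with auxin was −0.07 for the mevalonate enzymes, −0.07 from squalene to cholesterol, −0.12 for acetyl-CoA supply and the fatty acid chain, −0.10 for the desaturases, −0.09 for the regulators and −0.19 for transport. The lowest value was that of Abcg1, from 165 and 203 counts untreated to 134 and 148 with auxin (log2 −0.49, SE 0.153, 95% interval −0.82 to −0.16, edgeR adjusted p = 0.0951). The highest was that of Tm7sf2, from 184 and 198 to 261 and 236 counts (log2 0.28, SE 0.123, edgeR adjusted p = 0.231). In both genes the auxin and untreated libraries did not overlap, and neither difference passed the test.

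The desaturase pair that differed most in the wild type had auxin values of opposite sign. Scd1 was at −0.28 (SE 0.110, 95% interval −0.52 to −0.05, edgeR adjusted p = 0.167), and Scd2 at 0.14 (SE 0.065, 95% interval 0.00 to 0.28, edgeR adjusted p = 0.244). Scaled to mitochondrial mRNAs the Scd2 value turned to −0.03, and the difference between the genes was not tested. Elovl6 was at −0.18 (SE 0.066, edgeR adjusted p = 0.137), Fasn at 0.13 (SE 0.073, edgeR adjusted p = 0.345) and Acly at 0.11 (SE 0.067, edgeR adjusted p = 0.405), the last pair again turning negative (−0.03 and −0.07) on the mitochondrial scale. The regulators lay between −0.14 (Insig2) and 0.08 (Scap), with adjusted p of 0.461 or more in edgeR.

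The absence of calls depended on single libraries. Without untreated replicate 1, Abcg1 (log2 −0.62), Fdft1 (−0.30), Srebf2 (−0.19) and Elovl6 (−0.20) passed the edgeR threshold as lower. Without untreated replicate 2, Fasn (0.20) passed it as higher. Each of these fits leaves 1 untreated library. In both, the calls over all genes rose as well, so nothing is read from these calls about the members in particular. The untreated pair differed more than the other pairs over all genes, with a chi-square per degree of freedom of 5.48 against 2.29 for auxin and 2.49 for wild type. With all 3 groups in 1 edgeR fit, which pools the spread of the libraries, 668 of 16467 genes fell. Among them were Abcg1 (adjusted p = 0.0351), Elovl6 (adjusted p = 0.0449) and Scd1 (adjusted p = 0.045). With the replicate block 849 of 16128 genes fell in edgeR, among them Abcg1 (log2 −0.48, adjusted p = 0.0197). The fit of 2 groups without a block had 264 of 16128 genes that fell.

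**Figure D4:**
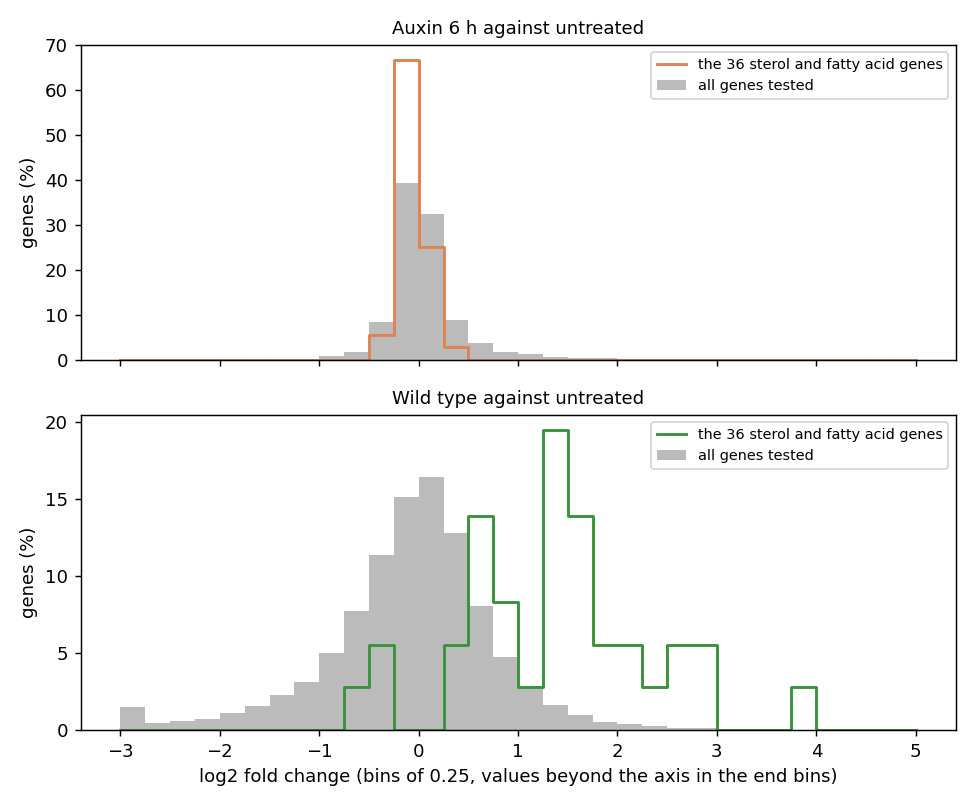
Share of genes (%) by log2 fold change in bins of 0.25, for all genes tested (grey bars) and for the 36 members (line), with auxin against untreated above and wild type against untreated below. With auxin the members' median is −0.09 beside 0 for all genes, and in the wild type around 1.34 beside −0.01; scaled to mitochondrial mRNAs both wild-type centres move down by about the same amount (members −0.74, all genes −2.10).

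Among 27 further genes of sterol and fatty acid handling that were listed with the members, 26 were tested in each comparison. With auxin 2 rose and none fell by the edgeR adjusted test, with 4 at an unadjusted p under 0.05, beside 2.56%, 1.64% and 20.1% of all genes tested. Mylip, a ubiquitin ligase known as an LXR target, rose from 149 and 179 to 294 and 283 counts (log2 0.71, SE 0.128, adjusted p = 0.00904), and had 251 and 214 counts in the wild type. Nr1h3, which encodes LXRα, rose from 25 and 17 to 69 and 48 counts (log2 1.37, SE 0.305, adjusted p = 0.0256). The Nr1h3 call was lost with DESeq2, its counts were low, and the gene shares exons on the same strand with Gm13783. Mylip was called in 9 and Nr1h3 in 10 of 13 settings. The Mylip call was lost on the mitochondrial scale, with no filter and without either auxin library. The exporters Abca1 (log2 0.12) and Abcg1 (−0.49) had opposite signs and did not pass the test. Whether LXR activity differed was not tested.

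In the wild type 15 of the 26 were past the threshold and higher, beside 29.9% of all genes, and 8 lower, beside 30.7%, with a median log2 difference of 0.41. Nr1h3 had 6 and 5 counts in the wild type (log2 −1.90, SE 0.453), the lowest value of the list.

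Cell type markers moved with the wild-type comparison as well. The 12 markers of feeder fibroblasts summed to 917.6 and 807.1 CPM untreated, 931.4 and 997.6 with auxin, and 317.8 and 312.9 in the wild type. In the wild type 7 of the 10 tested were called lower and 1 higher, beside 30.7% and 29.9% of all genes. With auxin 2 were called higher and none lower, beside 2.56% and 1.64%. Tagln held the largest part of the sum, at 492.8 and 410.4 CPM untreated and 87.5 and 84.1 in the wild type. Acta2 was at 136 and 125.4 CPM untreated and 48.7 and 43.8 in the wild type. The marker called higher was Postn, at 2.37 and 1.38 CPM untreated and 3.03 and 4.89 in the wild type. Col3a1 overlapped between these groups. Col1a1 was at 65.65 and 64.5 CPM untreated and 67.8 and 63.9 in the wild type. Lum was at 0 counts in 5 libraries and at 1 in the other, and Dcn had at most 4 counts. The 8 pluripotency markers summed to 3616 and 4220 CPM untreated, 3017 and 3245 with auxin, and 5976 and 5911 in the wild type. Of these, 5 were called higher and 1 lower in the wild type, beside 29.9% and 30.7% of all genes. With auxin 4 were called lower and none higher, beside 1.64% and 2.56%. Dppa5a was at 684.6 and 861.9 CPM untreated and 2063 and 2045 in the wild type. Pou5f1 was at 741.2 and 873.6 CPM untreated and 827.6 and 818.7 in the wild type. The summed CPM of the 6 primitive endoderm markers ranged from 26.4 to 28.5 in the tagged libraries and from 61.9 to 64.9 in the wild type. All 6 were called higher in the wild type, beside 29.9% of all genes. Markers of adipocytes, a cell type that makes fatty acids, summed to at most 2.2 CPM in any library. The extraction text of the wild-type libraries names retinas. The 8 retinal markers summed to 5.72 and 5.23 CPM untreated, 5.33 and 6.2 with auxin, and 7.33 and 7.61 in the wild type. Crx and Rcvrn were at 0 in all 6 libraries. Rlbp1, the 1 retinal marker tested in the wild type, was called higher (log2 0.725, SE 0.208), beside 29.9% of all genes. The part of these cell types, and of the mitochondrial share given above, in the differences of the 36 genes was not tested.

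**Figure D5:**
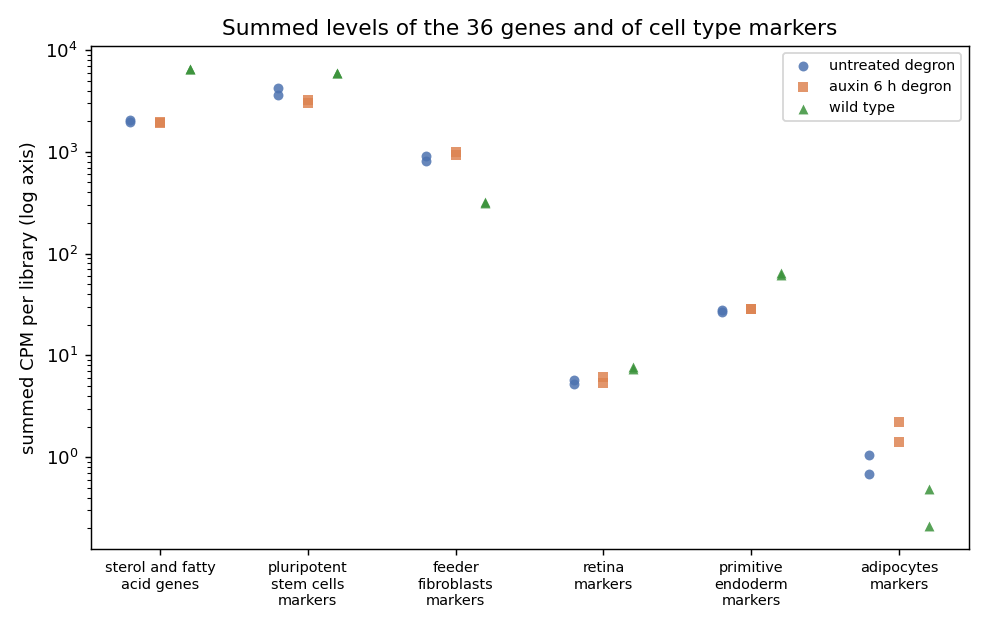
Summed CPM per library (log axis) of the 36 sterol and fatty acid genes and of 5 marker lists, with 2 points per group. The members go from 1966 and 2050 in untreated to 6543 and 6456 in the wild type under TMM scaling (on the mitochondrial scale the members' median is below 0). The summed feeder fibroblast markers, with Tagln as the largest part, go from 917.6 and 807.1 to 317.8 and 312.9, while Postn among them was called higher.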

How the data were processed

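PolyA libraries (150 bp paired, 2 per group) were aligned by the authors to mm10 with HISAT2 2.1.0. The submitters' processing notes also name Salmon, HTSeq and DESeq2. The authors deposited whole-number counts per gene in 2 tables of 39017 genes each; the annotation release and strand setting are not given in the sources used here. Both tables were joined by gene ID, and 2 columns of other samples were not used. Here, counts were tested in R 4.3.3 with edgeR 4.0.16 (filterByExpr, minimum count 10; TMM; quasi-likelihood test, Benjamini-Hochberg over all genes tested, call at adjusted p under 0.05), with untreated as reference in both comparisons, which share the untreated libraries. SE is the log2 fold change divided by the root of F. On simulated counts the procedure was tested before use. DESeq2 1.42.0, other scalings and filters, a replicate block and leaving out each library were alternatives. Coordinates, exon lengths (union of exons) and overlaps came from GENCODE vM21 (GRCm38), promoters from RefSeq. Intervals cover only the spread between 2 libraries per group. Their variance is that of the edgeR quasi-likelihood fit, which is moderated over all genes, so a gene's own spread alone does not set them. Depth was alike (14094022 to 15358714 counts).

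The members and all gene lists were chosen with earlier results of these data known. Values in every library are given for the 6 members with the largest absolute wild-type difference, the 5 regulators, the 3 highest and 3 lowest members, members called with auxin (none) and, of the other pathway genes, those called with auxin and the largest wild-type difference in each direction, of which the positive one is not reported here; Dhcr7, Me1, Stard4, Abcg1 and Tm7sf2 were added as examples after their values were seen. Over all genes past the filter, the deviations of equally numbered replicates correlated little (0.07 for untreated and auxin, −0.03 for untreated and wild type). These correlations cannot exclude that replicate numbers pair the samples.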

Additional observations from a re-analysis of the deposited data

How the results depend on the processing

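Each comparison was repeated under 12 alternative settings. With auxin, the members called lower were 0 under TMM scaling, 1 with the replicate block and 3 with all 3 groups in one fit, and ranged from 0 to 4 when a library was left out; those called higher ranged from 0 to 1. The members' median of −0.09 was −0.076 with library totals, −0.25 scaled to mitochondrial mRNAs, −0.12 with no filter and −0.11 with all 3 groups, and from −0.145 to −0.021 leaving out a library. Scaled to mitochondrial mRNAs, positive auxin values turned to −0.012 (Idi1), −0.029 (Scd2), −0.09 (Scap), −0.065 (Acly), −0.034 (Fasn), −0.056 (Abca1), −0.029 (Ebp), −0.142 (Mvd) and −0.095 (Dhcr7). The median of all genes was −0.168 on that scale, and the cause of the shift was not tested. Leaving out a library gave Insig1 values from −0.222 to 0.048 and Abca1 values from −0.027 to 0.265. Over all genes, auxin calls (413 higher, 264 lower) became 176 and 114 with DESeq2, 43 and 12 with no filter, 167 and 52 scaled to mitochondrial mRNAs, 567 and 668 with all 3 groups and 1081 and 849 with the replicate block. Leaving out either untreated library raised both counts, and leaving out either auxin library lowered both. The cause was not tested.

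In the wild type, the members' median of 1.34 was 1.29 with library totals, 1.33 with at least 10 counts in every library, and from 1.297 to 1.464 leaving out a library. Scaled to mitochondrial mRNAs it was −0.74, with 5 members called higher, 26 lower and 1 called with a log2 difference over 1, and values turned to −1.38 (Srebf1), −0.84 (Srebf2), −0.47 (Acly), −0.085 (Fasn), −1.85 (Abca1), −1.55 (Acss2) and −1.54 (Ebp); all genes then split into 73 higher and 15235 lower. Members called lower ranged from 1 to 3 leaving out a library. The replicate block changed no other call of a member. With library totals in place of TMM, the members summed to 2001 CPM with auxin and 6248 in the wild type. With 2 libraries per group and no spike-in, small changes and absolute amounts are not resolved.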
